A study of Mus musculus with 10 samples.

Results

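Transcripts of 10 interferon-induced antiviral effector genes were followed in RNA from mouse spermatogenic cells, 10 of the 23420 gene rows counted in each library. The genes are Oas1a, Oas2 and Oasl2 of the oligoadenylate synthetase family, Ifit1, Ifit2 and Ifit3 of the IFIT family, the ubiquitin-like modifier gene Isg15, the exonuclease gene Isg20, the receptor transporter gene Rtp4 and Bst2, which encodes tetherin. They were chosen by their measured differences between the Ino80cKO and Ino80WT libraries, in an earlier account of the same counts, and found here by gene symbol, so these differences between genotypes are given as descriptions and without a p-value. A gene is said to be called where it passed the threshold of the fit over all genes, and for these 10 genes that too is a description and no independent test. All 10 symbols were found, and all 10 passed the filter on low counts. Oas1a and Oas2 passed it through the Ino80cKO libraries alone, with 2 to 6 and 7 to 11 counts per Ino80WT library. Such a pass favours genes that are higher in Ino80cKO.

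PolyA RNA came from testes at postnatal day 18, in 5 libraries labelled Ino80WT and 5 labelled Ino80cKO, all of mixed background. In Ino80cKO, Ino80 is deleted by Stra8-Cre, whose promoter is active in male germ cells. Tubules were digested with enzymes and strained, and no sort is described, so somatic and immune cells can be present. The labels do not say which Cre or floxed alleles the Ino80WT animals carried, nor that each library came from its own animal, so the errors below measure the spread between libraries, which may be partly technical.

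The libraries held 16750609 to 23700094 counts in genes. Ino80 itself was at 94.96 ± 12.6 CPM in Ino80WT and 96.1 ± 1.37 CPM in Ino80cKO (log2 fold change 0.02 ± 0.09, edgeR adjusted p = 0.889). Which exons are deleted is not given in the labels, and a count over the whole gene cannot show their loss, so it does not check the genotype labels. Ino80WT 3 and Ino80cKO 5 stood apart from their groups in immediate-early genes such as Fos and Egr1. Without both libraries the median log2 fold change of the 10 antiviral genes was 0.99, in place of 1.06, and 6 in place of 7 were called.

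Gene positions are those of RefSeq on GRCm38.p6. Oas1a (chr5:120896256-120907544) and Oas2 (chr5:120730333-120749886) lie near each other on the minus strand, and Oasl2 (chr5:114896926-114912245) lies apart on the plus strand. Ifit1 (chr19:34640889-34650009), Ifit2 (chr19:34550550-34576534) and Ifit3 (chr19:34583119-34588982) lie together on the plus strand. Isg15 (chr4:156199424-156200818, minus strand), Isg20 (chr7:78913396-78920396, plus), Rtp4 (chr16:23520219-23614222, plus) and Bst2 (chr8:71534255-71537472, minus) lie on other chromosomes. All 10 are annotated as protein coding, and none has exons overlapping those of a gene on the opposite strand.

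Type I and type III interferons signal through a complex of transcription factors that includes IRF9 and binds the interferon-stimulated response element (ISRE) in promoters. Type II interferon acts mainly through the GAS element. The products of the induced genes act at different steps against viruses. Oligoadenylate synthetases sense double-stranded RNA and make oligoadenylates as a second messenger, IFIT proteins bind foreign RNA, ISG15 is attached to other proteins, ISG20 degrades RNA, and tetherin holds budding virus at the cell surface. Basal expression of such genes is found in many cells that are not infected.

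Promoter sequences are shown because most of the 10 genes were higher together in Ino80cKO, and the ISRE is the element their family is known for. A RefSeq promoter (GRCm38.p6, the assembly that mm10 names) was held for 8 of the 10 genes, and Oas2 and Rtp4 had no entry. Each line gives the 150 bases before the transcript start, read 5′ to 3′ on the strand of the gene, with matches to the ISRE core (GAAA, any 2 bases, then GAAA) on either strand in capitals.
Isg15 promoter (chr4:156200819-156200968, minus strand): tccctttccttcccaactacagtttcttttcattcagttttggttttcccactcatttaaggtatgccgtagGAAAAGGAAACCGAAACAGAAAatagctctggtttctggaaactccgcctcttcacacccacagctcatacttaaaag
Oas1a promoter (chr5:120907526-120907675, minus strand): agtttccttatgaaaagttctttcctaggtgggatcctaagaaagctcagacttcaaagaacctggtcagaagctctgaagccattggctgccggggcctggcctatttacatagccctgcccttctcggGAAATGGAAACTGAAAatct
Ifit1 promoter (chr19:34640739-34640888, plus strand): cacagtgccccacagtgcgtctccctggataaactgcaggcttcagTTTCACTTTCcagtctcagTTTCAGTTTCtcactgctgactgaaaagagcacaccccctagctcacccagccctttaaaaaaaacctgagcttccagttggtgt
Bst2 promoter (chr8:71537473-71537622, minus strand): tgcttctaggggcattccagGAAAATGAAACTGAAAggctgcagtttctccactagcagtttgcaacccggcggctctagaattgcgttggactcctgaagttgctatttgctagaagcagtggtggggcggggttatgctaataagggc
Oasl2 promoter (chr5:114896784-114896933, plus strand): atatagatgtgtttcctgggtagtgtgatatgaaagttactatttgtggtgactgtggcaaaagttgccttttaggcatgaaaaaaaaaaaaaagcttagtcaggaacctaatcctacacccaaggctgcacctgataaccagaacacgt
Isg20 promoter (chr7:78913274-78913423, plus strand): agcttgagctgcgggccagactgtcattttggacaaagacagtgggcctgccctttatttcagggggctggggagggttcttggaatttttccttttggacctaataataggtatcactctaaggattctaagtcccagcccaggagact

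The ISRE core was present in 5 of the 8 genes (Oas1a, Ifit1, Ifit3, Isg15 and Bst2), within windows of 300 bases from 250 before to 50 after the start. It was found in 3.44% of all 32851 RefSeq promoters of that length and in 3.99% of genes. The core is not particular to the set. Among genes with a promoter in the lists used below, it was in 9 of 9 interferon-inducible GTPases and 3 of 3 other IFIT genes. It was in 3 of 6 other OAS genes, 11 of 31 other interferon-induced antiviral genes and 0 of 4 genes that attach or remove ISG15. The start is the transcript start listed with each promoter, which need not be the outer end of the gene. For Oas1a, Oasl2, Ifit2, Ifit3 and Isg20 it lies inside the RefSeq gene span given above. That span holds the Ifit3 matches and nearly all bases of the Oas1a matches described below. The Isg15 promoter held 3 overlapping matches between 78 and 57 bases before the start, GAAAAGGAAA, GAAACCGAAA and GAAACAGAAA. The Oas1a promoter held 2 overlapping matches, GAAATGGAAA and GAAACTGAAA, between 20 and 5 bases before the listed start. Ifit1 held 2 separate matches on the opposite strand, GAAAGTGAAA starting 104 and GAAACTGAAA starting 85 bases before the start. Ifit3, not printed, carried the same 2 words on the opposite strand, 156 and 122 bases before its listed start. In Bst2, 2 matches overlapped between 130 and 115 bases before the start. The 3 promoters without this core were those of Oasl2, Ifit2 and Isg20, including the 2 listed promoters of Ifit2 and the 3 of Isg20. The GAS core TTCNNNGAA, which reads the same on both strands, was found in Oas1a, Ifit2, Isg20 and Bst2 and in 8.30% of all promoters, and in Bst2 it overlapped the ISRE core. A match is a match of letters in this window and does not show binding.

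**Figure D1:**
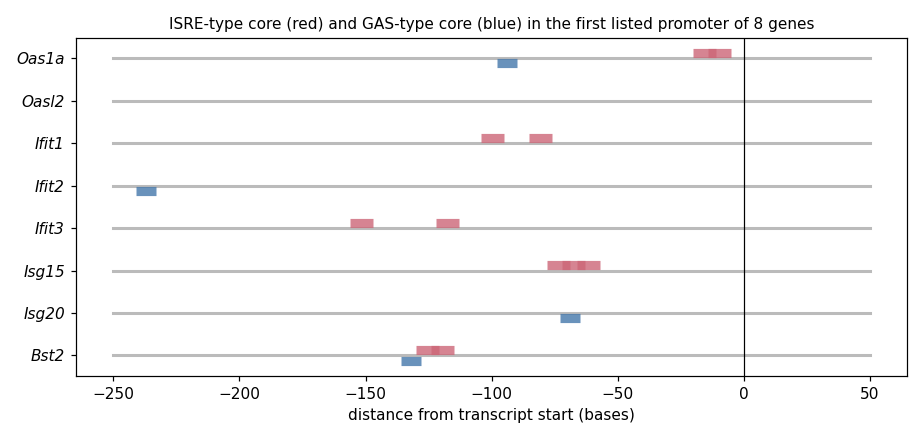
Positions of the ISRE core (red) and the GAS core (blue) along the first listed RefSeq promoter of 8 genes, from 250 bases before to 50 bases after the transcript start (x axis, bases). The Isg15, Oas1a, Ifit1, Ifit3 and Bst2 promoters hold red marks, all before the listed start, and those of Oasl2, Ifit2 and Isg20 hold none.

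Of the 10 genes, 7 were called higher in Ino80cKO, none was called lower and 3 (Ifit2, Ifit3 and Isg20) had no call, at an adjusted p below 0.05 in the fit over all genes. Among all 15265 genes tested 18.3% were called higher and 27.6% lower (5484 genes higher and 2937 lower under library totals without TMM factors, in place of 2793 and 4220), and since the genes were picked with this comparison known, nothing is read from the contrast of the 2 shares. The median log2 fold change of the 10 genes was 1.06, against 0.02 for all genes tested. The groups did not overlap, with every Ino80cKO library above every Ino80WT library, for 5 of the 10 genes (Oas1a, Oas2, Oasl2, Ifit1 and Rtp4), and this held for 9.96% of all genes tested. Oas1a and Oas2, which passed the filter through Ino80cKO alone, are among both the 7 and the 5. Levels below are CPM, counts scaled by library size and TMM factors,, with SD over n = 5 libraries per group, and differences are log2 fold changes of Ino80cKO over Ino80WT with their SE. The level of 3 counts, the limit that a count of 0 allows, was 0.117 to 0.189 per library and covers counting error only.

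**Figure D2:**
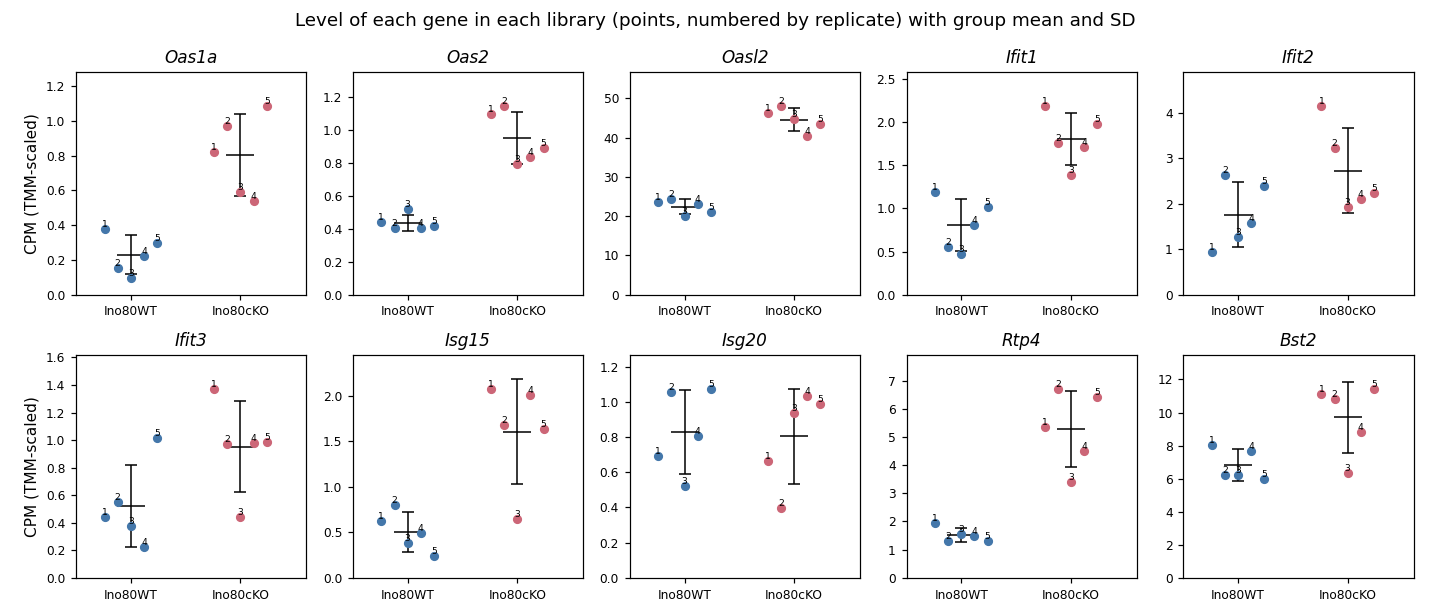
CPM (y axis, from 0) of each of the 10 genes in the 5 Ino80WT (blue) and 5 Ino80cKO (red) libraries, points numbered by replicate, with bars for the group mean and SD. Oasl2 and Rtp4 separate the groups by the widest gaps, and the groups cover the same range for Isg20.

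Among the oligoadenylate synthetases, Oasl2, an OAS-like protein with ubiquitin-like repeats, was the best measured, with 352 to 517 counts per Ino80WT library and 821 to 1183 per Ino80cKO library. Its level was 23.6, 24.3, 20.0, 23.2 and 21.0 CPM in Ino80WT libraries 1 to 5 and 46.3, 48.1, 44.8, 40.3 and 43.4 CPM in Ino80cKO libraries 1 to 5. All 5 Ino80cKO libraries lay above all Ino80WT libraries, and neither group had a library far from the rest. The mean rose from 22.4 ± 1.82 to 44.6 ± 2.96 CPM, a log2 fold change of 0.99 ± 0.08 (1.99-fold, 95% interval 1.76 to 2.25). Oasl2 alone made up 60.5% to 73.1% of the summed CPM of the 10 genes in each library.

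Oas1a and Oas2 were scarce. Oas1a had 2 to 6 counts per Ino80WT library and 11 to 22 per Ino80cKO library. It was at 0.378, 0.151, 0.0944, 0.224 and 0.298 CPM in Ino80WT and at 0.822, 0.970, 0.593, 0.540 and 1.09 CPM in Ino80cKO. The groups did not overlap, although Ino80WT 2 and 3 were at or under the level of 3 counts. The log2 fold change was 1.84 ± 0.35, with a wide 95% interval of the fold from 2.11 to 6.05. Oas2 was at 0.441, 0.403, 0.519, 0.403 and 0.417 CPM in Ino80WT and at 1.10, 1.15, 0.791, 0.835 and 0.890 CPM in Ino80cKO. Its Ino80WT libraries lay close together, and its log2 fold change was 1.12 ± 0.21 (2.17-fold, interval 1.58 to 2.99).

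The Oas1a count is uncertain because of a close copy. Of the windows of 50 bases in its GENCODE M21 transcripts, 57.6% also occur in transcripts of Oas1g, and 40.9% of windows of 100 bases do. A counter that leaves out reads with several alignments loses such reads from both genes. Oas1g itself had 5 counts over all Ino80WT libraries and 22 over all Ino80cKO libraries, too few for the filter. Oas2 shared no window of 50 bases with another gene, and Oasl2 shared 0.138%.

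The IFIT genes, whose tetratricopeptide-repeat proteins bind RNA and each other, differed among themselves. Ifit1, which binds RNA caps that lack ribose methylation, was at 1.20, 0.554, 0.472, 0.807 and 1.01 CPM in Ino80WT and at 2.19, 1.76, 1.38, 1.72 and 1.98 CPM in Ino80cKO. Its groups did not overlap, with a gap from 1.20 CPM in Ino80WT 1 to 1.38 CPM in Ino80cKO 3. The log2 fold change was 1.19 ± 0.25 (2.27-fold, interval 1.56 to 3.32). Ifit2 was at 0.944, 2.62, 1.27, 1.57 and 2.38 CPM in Ino80WT and at 4.15, 3.22, 1.93, 2.11 and 2.22 CPM in Ino80cKO. Ino80cKO 1 and 2 stood above all Ino80WT libraries, while the other Ino80cKO libraries fell among them. Its log2 fold change of 0.64 ± 0.30 was not called. Ifit3, a partner of the other IFIT proteins, was at 0.441, 0.554, 0.377, 0.224 and 1.01 CPM in Ino80WT and at 1.37, 0.970, 0.445, 0.982 and 0.988 CPM in Ino80cKO. Ino80WT 5 was as high as most Ino80cKO libraries and Ino80cKO 3 as low as most Ino80WT libraries, and the log2 fold change of 0.91 ± 0.38 was not called. Both differences moved with the libraries in the fit. Over the alternatives the log2 fold change of Ifit2 ran from 0.43 (without Ino80cKO 1) to 0.83 (without Ino80WT 2), and that of Ifit3 from 0.70 (without Ino80WT 4) to 1.27 (without Ino80WT 5). Ifit2 passed the threshold without Ino80WT 2, Ifit3 without Ino80WT 5 or Ino80cKO 3, and both under library totals without TMM factors.

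Ifit3 also has a close copy, since 51.2% of its windows of 50 bases occur in transcripts of Ifit3b. Ifit3b is listed as I830012O16Rik and had 24 counts over all Ino80WT and 26 over all Ino80cKO libraries. Ifit1 shared 7.13% of such windows, nearly all with Ifit1bl2, which is listed as 2010002M12Rik and had 43 and 34 counts. Ifit2 shared none.

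Isg15, the ubiquitin-like protein that is joined to other proteins after interferon, was at 0.629, 0.806, 0.377, 0.493 and 0.238 CPM in Ino80WT, 4 to 16 counts per library. In Ino80cKO it was at 2.08, 1.68, 0.642, 2.01 and 1.63 CPM, 13 to 53 counts. Of the Ino80cKO libraries 4 lay above all Ino80WT libraries, and Ino80cKO 3 lay among them. The mean rose from 0.509 ± 0.220 to 1.61 ± 0.575 CPM, a log2 fold change of 1.65 ± 0.35 (3.14-fold, interval 1.86 to 5.32). Isg20, an exonuclease of single-stranded RNA, showed no such shift. It was at 0.692, 1.06, 0.519, 0.807 and 1.07 CPM in Ino80WT and at 0.666, 0.397, 0.939, 1.03 and 0.988 CPM in Ino80cKO. The groups covered much the same range, and the log2 fold change was -0.05 ± 0.29, with an interval of the fold from 0.620 to 1.50. With 9 to 21 counts per library, the interval leaves room for a change in either direction. The sign of its difference turned to 0.12 under library totals without TMM factors.

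Rtp4, a chaperone that carries receptors to the cell surface, had the largest log2 fold change of the 10 genes after Oas1a. It was at 1.95, 1.31, 1.56, 1.48 and 1.31 CPM in Ino80WT and at 5.36, 6.70, 3.41, 4.52 and 6.42 CPM in Ino80cKO. The groups were far apart, and the Ino80cKO libraries spread more widely than the Ino80WT libraries. The mean rose from 1.52 ± 0.263 to 5.28 ± 1.36 CPM, a log2 fold change of 1.80 ± 0.21 (3.48-fold, interval 2.55 to 4.74). The annotated gene Gm45338 overlaps 296 bases of Rtp4 exons on the same strand, and 11.6% of the 50-base windows of Rtp4 occur in its transcripts.

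Bst2 was at 8.06, 6.20, 6.23, 7.66 and 5.96 CPM in Ino80WT and at 11.1, 10.8, 6.32, 8.84 and 11.4 CPM in Ino80cKO. Ino80cKO 3 lay among the Ino80WT libraries and the other 4 above them. Its mean rose from 6.82 ± 0.964 to 9.70 ± 2.14 CPM, a log2 fold change of 0.51 ± 0.17, the smallest among the called genes (1.42-fold, interval 1.11 to 1.83). Over the alternatives its log2 fold change ran from 0.42 (without Ino80WT 3 and Ino80cKO 5) to 0.68 (under library totals without TMM factors). It no longer passed the threshold in the first of these, nor when Ino80WT 2, Ino80WT 5, Ino80cKO 1, Ino80cKO 2 or Ino80cKO 5 was left out alone.

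**Figure D3:**
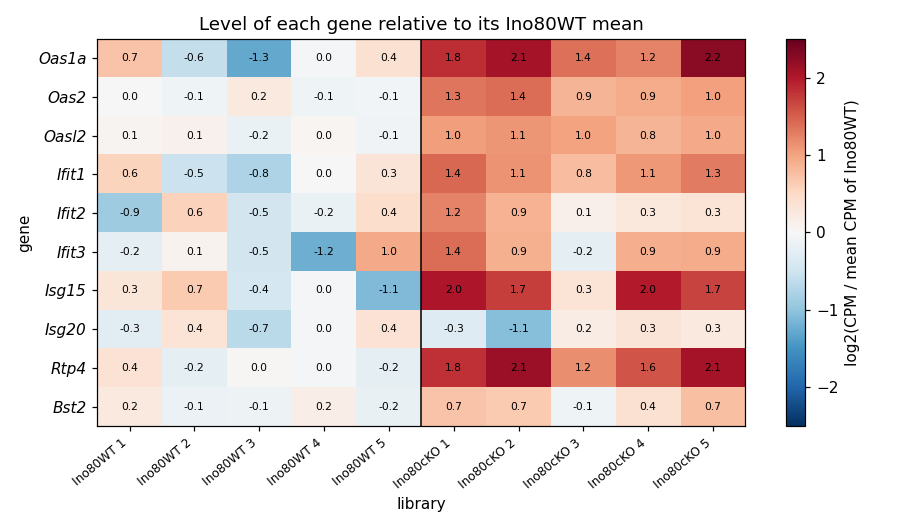
Log2 ratio of the CPM of each gene (rows) in each library (columns) to the mean CPM of the same gene in Ino80WT, with the value in each cell. Red marks values above the Ino80WT mean. Oasl2 is even across the Ino80cKO libraries (0.85 to 1.10), and Ino80cKO 3 is paler than the other Ino80cKO libraries for Isg15, Rtp4, Bst2, Ifit2 and Ifit3.

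Levels were compared between genes per kilobase of annotated exon sequence (GENCODE M21), since longer transcripts collect more reads. In Ino80WT, Bst2 was highest at 7.55 ± 1.07 CPM per kilobase, followed by Oasl2 at 3.52 ± 0.286, and the ranges of these genes did not overlap with each other or with the next. Rtp4 (0.714 ± 0.123), Isg15 (0.673 ± 0.291), Ifit2 (0.448 ± 0.183), Isg20 (0.446 ± 0.128), Ifit1 (0.304 ± 0.115), Ifit3 (0.299 ± 0.172), Oas1a (0.121 ± 0.0599) and Oas2 (0.0981 ± 0.0109) came next, and each overlapped with its neighbour in this order. In Ino80cKO, Bst2 (10.7 ± 2.37 CPM per kilobase) and Oasl2 (6.99 ± 0.464) again led, now with overlapping ranges. Rtp4 (2.48 ± 0.639) and Isg15 (2.13 ± 0.760) followed, and Isg20 stood eighth of 10, in place of sixth in Ino80WT.

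Within Ino80cKO the libraries differed in the same direction for many of the genes. Ino80cKO 3 was the lowest of its group for 7 of the 10, and the highest was Ino80cKO 1 for 4 and Ino80cKO 2 for 3. Summed over the 10 genes the level was 31.4 to 38.3 CPM in Ino80WT and 61.2 to 75.7 CPM in Ino80cKO. Without Oasl2 the sum was 11.4 to 14.7 CPM in Ino80WT and 28.9, 27.6, 16.5, 22.6 and 27.6 CPM in Ino80cKO 1 to 5. Ino80cKO 1 exceeded every Ino80WT library for 9 of the 10 genes and Ino80cKO 3 for 5.

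The deviation of each library from its own genotype mean (log2 CPM with a prior count of 2) shows how the genes moved together apart from the genotype difference. Over the 10 libraries Pearson's r between pairs of the 10 genes had a median of 0.243 and was above 0 for 37 of 45 pairs. These are descriptions over libraries that share depth and cell makeup. Rtp4 and Bst2 were most alike (r = 0.899), then Oas1a and Ifit1 (0.872) and Isg15 and Bst2 (0.690). For Isg20 the highest r with another of the 10 was 0.123, with Ifit3, and the r with Oas2 was -0.876. Oas1a, Oas2 and Isg20 had 2 to 22, 7 to 28 and 9 to 21 counts per library, so counting error can make up much of their deviations. For Oas2 the variance within the genotype was 0.113 (Ino80WT) and 0.587 (Ino80cKO) of that from counting error alone. Values of r for such scarce genes are not read as genes moving together or apart. Compared with the profile of the 10 genes were 12338 others with an average log2 CPM of at least 1 and no provisional symbol. The profile was most like that of Gbp7 (r = 0.959), an interferon-inducible guanylate-binding protein. Next came Ifi27l1 (0.917), listed among interferon-induced genes, Tap2 (0.910), the peptide transporter of antigen presentation, Wdr75 (0.907), Bves (0.901), Rab14 (0.893), Tmem59 (0.885), Mettl5 (0.882), Smim7 (0.877) and Gsn (0.875). Of these 10, Gbp7, Ifi27l1, Tap2, Bves and Gsn were called higher in Ino80cKO, Wdr75 was called lower, and 4 had no call. The highest of 12338 values of r over 10 libraries can be large without a link between genes.

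Family members outside the set were mostly too scarce to test. Of 9 other OAS genes 4 passed the filter, and 2 of them were higher. Oas1b rose from 0.997 ± 0.190 to 2.01 ± 0.329 CPM (log2 1.02 ± 0.19, adjusted p = 0.00122), and Oas1c from 1.21 ± 0.303 to 1.87 ± 0.259 CPM (log2 0.63 ± 0.20, adjusted p = 0.0231). Oas3, the long oligoadenylate synthetase, was at 1.43 ± 0.342 and 1.45 ± 0.342 CPM (log2 0.02 ± 0.22), and Oasl1 had a log2 fold change of 0.15 ± 0.25, neither called. Only 1 of the 2 rises was called without Ino80WT 2, Ino80WT 5 or Ino80cKO 1, and without Ino80WT 3 and Ino80cKO 5 together. None of the 3 other IFIT genes passed the filter, and of 3 other RTP genes only Rtp3 did, with no call.

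The enzymes around ISG15 moved in part. Of 5 genes that attach or remove ISG15, 3 were called higher and none lower (median log2 0.56). Uba7, the activating enzyme, rose from 1.48 ± 0.471 to 3.23 ± 0.604 CPM (log2 1.15 ± 0.23, adjusted p = 0.00146). Usp18, which removes ISG15 and restrains interferon receptor signalling, rose from 2.62 ± 0.519 to 5.12 ± 1.16 CPM (log2 0.97 ± 0.19, adjusted p = 0.00143), and the ligase gene Trim25 rose 1.48-fold to 62.8 ± 3.71 CPM. The conjugating enzyme Ube2l6 (log2 0.12 ± 0.13) and the ligase Herc6 (log2 -0.17 ± 0.20), the latter named after its value was seen, were not called. Abce1, a ribosome recycling factor, fell by 0.26 on the log2 scale (SE 0.06, adjusted p = 0.00502), a call that was lost under library totals without TMM factors. Pde12, which degrades oligoadenylates, was not called (log2 0.12 ± 0.07), and neither were the ISG20 relatives Isg20l2 (0.07 ± 0.08) and Aen (-0.07 ± 0.10).

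**Figure D4:**
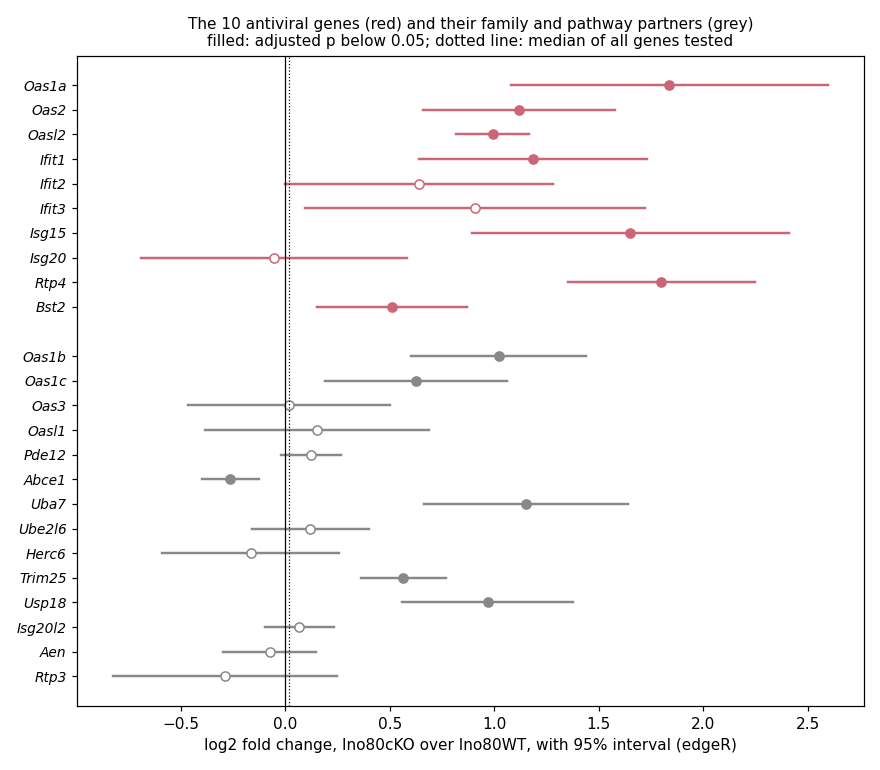
Log2 fold change of Ino80cKO over Ino80WT (x axis) with its 95% interval for the 10 antiviral genes (red) and for their tested family members and pathway partners (grey). Filled points passed an adjusted p below 0.05 in edgeR, open points did not, and the dotted line is the median of all genes tested (0.02). Of the open points only that of Ifit3 has an interval that does not include 0.

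Over all pathway lists outside the set 61 of 97 tested genes were called higher and 7 lower, against 18.3% higher and 27.6% lower among all genes tested. Their median log2 fold change was 0.56. The lists were also chosen with earlier results of these data known, and scarce genes can pass the filter mainly through the group where they are higher. These counts are therefore descriptions, and nothing is read from their contrast with all genes. Of 38 other interferon-induced antiviral genes 22 were higher and 3 lower (median 0.55). Lgals3bp rose 2.16-fold to 8.95 ± 1.43 CPM, Parp14 1.87-fold, Samd9l 1.70-fold and Parp9 1.67-fold. The 3 that fell, named after their values were seen, were Epsti1 (log2 -1.22 ± 0.32), Tdrd7 (-0.67 ± 0.14), which also has a role in germ granules, and Parp12 (-0.28 ± 0.07). Of 13 interferon-inducible GTPases 11 were higher and none lower (median 1.20), among them Iigp1 (log2 1.92 ± 0.31) and Gbp7 (1.16 ± 0.13, from 7.35 ± 0.676 to 16.5 ± 2.77 CPM).

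Of 11 nucleic acid sensors and adaptors 8 were higher and 1 lower (median 0.58). Ifih1 and Ddx58, cytosolic RNA sensors, rose 1.81-fold and 1.69-fold, Tlr3 1.61-fold and the kinase gene Eif2ak2 1.50-fold, while Dhx58, a helicase related to these sensors, named like Tyk2 below after its value was seen, fell from 16.2 ± 8.72 to 6.90 ± 1.89 CPM (log2 -1.23 ± 0.32, adjusted p = 0.00802). Of 20 genes of interferon receptors, kinases and transcription factors 14 were higher and 2 lower (median 0.41). Irf9, the DNA-binding subunit of the complex at the ISRE, rose from 23.2 ± 0.621 to 40.1 ± 6.26 CPM (log2 0.79 ± 0.11, adjusted p = 0.000136), and Irf7 rose 2.49-fold and Jak2 1.27-fold. Irf3 fell by 0.66 on the log2 scale (SE 0.10). The other gene called lower was Tyk2 (log2 -0.25 ± 0.07), and 1 of these 2 calls was lost with the replicate number as a block (52 pathway genes higher and 6 lower in all), without Ino80WT 1 and 2 together, and under library totals without TMM factors.

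Interferon transcripts themselves were at the limit of detection. Of 21 interferon genes 14 had no count in any library, no gene had more than 3 counts in a library, and none passed the filter. Ifnb1 had 1 count over all Ino80WT and 2 over all Ino80cKO libraries, and Ifng had 2 and 1. Reads with several alignments stayed out of these counts, and the sequence that interferon genes share with each other was not tested. A missing count therefore does not show that a transcript was absent. At this depth and without such reads, a difference in any interferon transcript was not detectable.

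Markers of other cells shifted between the groups as well. Beside the counts of calls below, 18.3% of all genes tested were called higher and 27.6% lower. The marker lists, too, were chosen with earlier results of these data known. The labelled cell type was checked with 14 germ cell and spermatocyte markers, which were all present, at a summed 7338 to 9931 CPM in Ino80WT and 4140 to 5475 CPM in Ino80cKO, with 12 of 14 called lower. Of 5 pan-leukocyte markers 5 were called higher, and their sum was 5.98 to 8.61 CPM in Ino80WT and 12.01 to 16.4 CPM in Ino80cKO (median log2 fold change 0.85). Of 15 tested macrophage markers 9 were called higher (median 0.79), with a sum of 93.7 to 128 CPM in Ino80WT and 134 to 178 CPM in Ino80cKO. No leukocyte or macrophage marker was at 0. Csf1r, the receptor for the macrophage growth factor, rose from 6.46 ± 1.26 to 11.2 ± 0.789 CPM (adjusted p = 0.000811). Most of the macrophage sum came from Mertk, which Sertoli cells also express and which was called higher (log2 0.54 ± 0.10), and from Mrc1, which was not called (log2 0.18 ± 0.14). Sertoli markers summed to 2541 to 3766 CPM in Ino80WT and 3670 to 4723 CPM in Ino80cKO, with 5 of 9 called higher (median 0.33), and 3 of 5 tested Leydig markers were called higher (median 0.54).

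Markers of other immune cells showed no rise that was called. T cell markers summed to 7.26 to 10.7 CPM in Ino80WT and 7.63 to 9.04 CPM in Ino80cKO, and 1 of 3 tested was called lower. B cell markers reached at most 2.17 CPM, neutrophil markers at most 1.98 CPM and NK cell markers at most 0.441 CPM in any library. No NK cell marker passed the filter. The 1 B cell marker and the 1 neutrophil marker that were tested were called lower (log2 fold changes -1.40 and -0.80). For plasmacytoid dendritic cells, which make much interferon, the markers summed to 81.2 to 85.6 CPM in Ino80WT and 81.6 to 94.1 CPM in Ino80cKO, and neither of the 2 tested was called. The highest of them was Tcf4, which many other cells also express, and Siglech had 20 counts over all Ino80WT and 18 over all Ino80cKO libraries. Conventional dendritic cell markers summed to 20.8 to 25.6 CPM in Ino80WT and 23.2 to 30.1 CPM in Ino80cKO, with none of 3 tested called and Cd209a at 0. Ino80cKO 3, the lowest of its group for 7 of the 10 antiviral genes, was also lowest for the pan-leukocyte sum, but the macrophage sum was lowest in Ino80cKO 5. The part of these shifts in cell markers in the differences of the 10 genes was not tested, and in bulk RNA fewer cells of a type and less RNA per cell cannot be told apart.

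**Figure D5:**
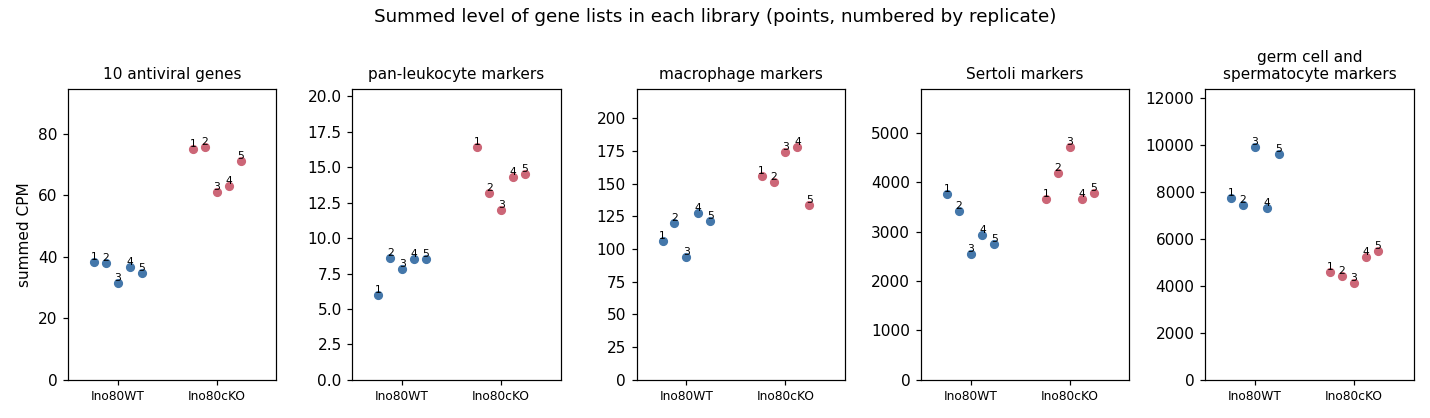
Summed CPM (y axes, from 0) of the 10 antiviral genes and of 4 marker lists in each library, Ino80WT in blue and Ino80cKO in red, points numbered by replicate. The antiviral, pan-leukocyte and macrophage sums are higher in every Ino80cKO library than in any Ino80WT library, the germ cell sum is lower in all of them, and the Sertoli sums overlap.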

How the data were processed

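PolyA RNA of spermatogenic cells was measured in 10 libraries, prepared with a stranded Kapa kit, per the labels' protocols. The deposited values are raw counts of reads per gene symbol, 1 file per library, per the file contents. TopHat2, HTSeq, DESeq2 and mm10 are named, without versions or roles, per the submitters' processing notes, and the annotation and strand setting were not named there. If strand was ignored, antisense reads cannot be told apart. HTSeq's summary rows, among them reads with several alignments, held 35.5% to 44.0% of reads and stayed out. Gene counts were 16750609 to 23700094 per library.

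Genes were filtered with filterByExpr (minimum count 10, minimum total 15), scaled by TMM and tested with edgeR 4.0.16 in R 4.3.3 (quasi-likelihood, genotype only, robust), with Benjamini-Hochberg adjustment over 15265 genes and calls below 0.05. The SE is the log2 fold change divided by the square root of F. DESeq2 1.42.0, other scalings and filters, a replicate block and leaving out libraries were alternatives. On counts simulated from these genes the procedure was checked for direction and false calls. The simulation changed far fewer genes than were called here, evenly up and down, so it does not cover a wide and uneven change. No 2 libraries were duplicates. The 10 genes, the lists and the tests were chosen with earlier results of these data known. Named were the 10 genes, up to 4 genes per pathway list with the smallest p, the 10 genes most like the set, and markers of high level. Protein sequences were not used here, and values of some single pathway genes are not reported here.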

Additional observations from a re-analysis of the deposited data

Results flagged for a closer look

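Among 160 groups of 5 libraries checked for a lone extreme value (the 10 antiviral genes, other genes named in the text and the marker sums, in each genotype), 18 held a library whose gap to the nearest other was more than 0.71 of the group's range. Chance gives about 1 in 20 such groups, but some genes were added because they stood apart, so the 2 shares are not comparable. None of the 20 groups of the 10 antiviral genes was among them.

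Most of these groups had the same library at the top, Ino80WT 3 or Ino80cKO 5. Irf1, a transcription factor induced by interferon and by other signals, was at 30.5 CPM in Ino80WT 3 against 10.2 to 15.6 CPM in the rest of its group, and at 76.8 CPM in Ino80cKO 5 against 14.2 to 17.8 CPM. Socs3, an inhibitor of cytokine signalling, was at 17.7 CPM in Ino80WT 3 and 36.6 CPM in Ino80cKO 5, against 2.68 to 7.71 CPM in the other libraries. Its relative Socs1 was at 11.3 CPM in Ino80cKO 5, against 4.23 to 4.82 CPM in the rest of its group. The immediate-early genes followed the same libraries, in Ino80WT 3 and Ino80cKO 5 in turn, with Fos at 249.7 and 499 CPM, Jun at 149 and 244 CPM, Egr1 at 405 and 746 CPM, and the stress-induced Atf3 at 22.6 and 61.1 CPM.

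Ino80cKO 5 also stood apart in markers of other cells. Its endothelial sum was 45.0 CPM, against 73.6 to 82.0 CPM in the rest of its group, its neutrophil sum 1.38 CPM, against 0.737 to 0.901 CPM, and Csf1r 9.84 CPM, against 11.2 to 11.8 CPM. The T cell sum was 7.63 CPM in Ino80cKO 2, against 8.65 to 9.04 CPM. The NK cell sum was 0.441 CPM in Ino80WT 1, against 0.0448 to 0.151 CPM.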

How the results depend on the processing

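The number of the 10 genes called higher was 6 to 9, with none lower and a median log2 fold change of 0.99 to 1.23, in 18 of 19 alternatives. With a filter of 1 CPM in 5 libraries 5 of the 10 genes were tested and 4 called higher, fewer because fewer were tested. Leaving out 1 library gave 6 to 8 called, and without Ino80WT 3 and Ino80cKO 5, chosen after seeing the data, 6 were. Under library totals without TMM factors 9 of the 10 were called, 5484 genes were higher in place of 2793 and 2937 lower in place of 4220, the share higher was 35.9% in place of 18.3%, 4 pathway genes were lower in place of 7, and the median of all genes moved from 0.02 to 0.19. The difference of Isg20 turned to 0.12 there, to 0.069 without Ino80WT 1 and 2, and ran from -0.19 to 0.12 when single libraries were left out. DESeq2 called 7 of the 10. With the replicate block 7 were called, and 1921 genes were higher and 3572 lower. Same-numbered libraries correlated at -0.470 to 0.196 in their deviations, above 0.1 in 2 of 5 pairs, and 1 of 5 correlated best with its own number, so the numbers were not taken as pairs. Of 771 further recomputed values on single genes, lists and totals, 742 kept their direction and call or, for counts and medians, stayed close to the reported value. Of the rest 12 moved further, 6 changed sign, all of Isg20, 6 lost and 5 gained a call. Medians were judged by closeness and not by sign. That of the ISG20 relatives turned from -0.004 to 0.17 under library totals without TMM factors and was counted as close. The likeness list shared 9 of 10 genes with a prior count of 0.5. Low counts limit Oas1a, Oas2, Ifit3, Isg15 and Isg20 most.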

Other observations

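The 2 libraries with the highest Irf1 and Socs3 did not share a place in the order of antiviral levels, a pattern singled out after the values were seen. Ino80WT 3 had the lowest summed level of the 10 antiviral genes in its group, 31.4 CPM. It also had the lowest macrophage (93.7 CPM), Leydig (26.4 CPM) and Sertoli (2541 CPM) sums of its group and the highest germ cell sum (9931 CPM). Its pan-leukocyte sum (7.83 CPM) was not the lowest. The part of these marker levels in its antiviral sum was not tested. Ino80cKO 5 was in the middle of its group by the antiviral sum, at 71.0 CPM, of which Oasl2 made up 61.1%, but it was the highest library for Oas1a and Bst2. Epsti1 and Dhx58, which were lower in Ino80cKO, were highest in Ino80WT 3, at 8.12 and 31.0 CPM.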
